A study of Mus musculus with 8 samples.

Results

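Heat shock chaperones are proteins that hold or refold other proteins, and the transcripts of 10 of them were followed here in mouse peritoneal macrophages treated with C498, a compound tested in the study against inflammatory signalling, and with bacterial lipopolysaccharide (LPS). The 10 genes, Hspa1a, Hspa1b, Hspa8, Hsph1, Dnajb1, Hspb1, Bag3, Hsp90aa1, Hspe1 and Hspd1, were taken by symbol from a table of 55801 genes, in which each symbol occurred once. All 10 had a mean of at least 1 TPM (transcript abundance scaled by transcript length and library size) over the 8 samples and were among the 12189 genes tested. The cells were washed from the peritoneum of male C57BL/6 mice, aged 6 to 8 weeks, 72 h after thioglycollate had been injected to draw macrophages there, and no sort of the cells is described. NC cells received the vehicle. LPS cells received the vehicle for 0.5 h and then 100 ng/ml LPS for 4 h. C498 cells received 15 µM C498, and C498+LPS cells received C498 for 0.5 h before LPS at the same dose and time. The study does not spell out the exposure time of the cells without LPS. Each of the 4 groups had 2 samples, and nothing in the sources states whether these came from separate mice or cultures, so the p-values measure the spread between these samples, which may be technical.

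The heat shock response is a programme by which cells meet unfolded protein. Heat shock factor 1, held inactive by chaperones in resting cells, binds repeats of a short element in front of chaperone genes and switches them on. Hspa1a and Hspa1b encode the inducible Hsp70 and Hspa8 the constitutive one. Dnajb1 is an Hsp40 that delivers clients to Hsp70, Hsph1 (Hsp110) and Bag3 exchange its nucleotide, Hspb1 is a small chaperone that holds unfolded protein, Hsp90aa1 is the inducible cytosolic Hsp90, and Hspe1 and Hspd1 form the mitochondrial chaperonin. In macrophages some of these chaperones, such as the cytosolic Hsp90, also serve kinases that carry the signal from LPS receptors.

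Stretches of DNA in front of the start sites of 3 genes that moved most and of the chaperonin pair that moved little are shown. These stretches hold letter matches to the element that heat shock factors read. They are written 5′ to 3′ on the strand of the gene from RefSeq on GRCm38.p6, and capitals mark inverted units of the element (GAANNTTC or TTCNNGAA, searched on both strands, of which a 3-unit run holds overlapping matches). Hspa1a is shown from chr17:34972157-34972406 (minus strand), Hspa1b from chr17:34959239-34959488 (minus strand), Hspb1 from chr5:135887669-135887918 (plus strand) and Hspe1 from chr1:55088053-55088082 (plus strand).
Hspa1a: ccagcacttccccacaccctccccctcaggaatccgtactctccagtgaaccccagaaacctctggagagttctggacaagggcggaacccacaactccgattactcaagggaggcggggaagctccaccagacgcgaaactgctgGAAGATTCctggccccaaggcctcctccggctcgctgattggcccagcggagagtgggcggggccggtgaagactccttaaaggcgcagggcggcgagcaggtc
Hspa1b: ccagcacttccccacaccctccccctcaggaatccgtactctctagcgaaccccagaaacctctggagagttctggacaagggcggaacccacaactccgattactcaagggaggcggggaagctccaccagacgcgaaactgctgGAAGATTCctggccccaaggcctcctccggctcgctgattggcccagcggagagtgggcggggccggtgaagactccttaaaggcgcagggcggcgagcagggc
Hspb1: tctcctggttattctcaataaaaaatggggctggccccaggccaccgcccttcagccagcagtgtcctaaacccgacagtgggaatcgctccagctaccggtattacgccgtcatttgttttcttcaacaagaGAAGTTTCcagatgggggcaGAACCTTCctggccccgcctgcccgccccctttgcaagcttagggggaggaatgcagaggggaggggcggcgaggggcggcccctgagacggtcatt
Hspe1: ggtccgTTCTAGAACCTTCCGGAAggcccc
The stretches of Hspa1a and Hspa1b differed at 3 of 250 bases (C44T, T47C and T249G, with the Hspa1a base first, then the position counted from 1 at the 5′ end, then the Hspa1b base). Both held GAAGATTC, its first base 104 bases before the start site. Hspb1 held GAAGTTTC at 117 bases and GAACCTTC at 97 bases before the start. The Hspe1 stretch held a run of more than 3 units and lies in an annotated exon of Hspd1, the neighbouring gene on the other strand, so that the same bases also stand in the Hspd1 window.

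Windows from 250 bases before the start to a short way past it were given for 8 of the 10 genes, all but Hspa8 and Hsp90aa1. Hspd1, Hsph1 and Dnajb1 had an additional window each, and that of Hspd1 held no match. A gene was counted if any of its windows held the form, while the shares beside it are per window. The form with 2 units was in the windows of 7 of these 8, all but Dnajb1, against 15.1% of all 32851 windows. The only match of Bag3 lay past the start, at base 43. Of all windows 12.8% held the form before the start. The form with 3 units in a row was in those of Hspd1, Hspe1 and Hsph1, against 0.603% of all windows. The match of Hsph1 lay past the start, and 0.466% of all windows held this form before the start. Among 9054 tested genes with a window, 5.04% of the 1269 with the 2-unit form and 5.07% of those without it were called higher by limma in C498 vs NC. Of the 49 with the 3-unit form 0 were called higher by limma, against 5.1% of those without it. At an unadjusted p under 0.05, 16.3% of the 49 (8 genes) and 17.2% of those without the form were higher. A match of letters is a description and not a shown binding site.

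The coding sequences of Hspa1a and Hspa1b were 99.4% identical, with 11 differing positions of 1926 aligned, so reads from one can be counted for the other. The sum of both is therefore given beside each. Hspa1a and Hspa8 shared 73.9% of positions. On GRCm38 (GENCODE M21), Hspa1a (ENSMUSG00000091971) lies at chr17:34969190-34972156 and Hspa1b (ENSMUSG00000090877) at chr17:34956436-34959238, both on the minus strand. Hspa8 (ENSMUSG00000015656) lies at chr9:40800984-40810087, Hsph1 (ENSMUSG00000029657) at chr5:149614287-149636376, Dnajb1 (ENSMUSG00000005483) at chr8:83608193-83612653 and Hspb1 (ENSMUSG00000004951) at chr5:135887919-135889563. Bag3 (ENSMUSG00000030847) lies at chr7:128523616-128546981, Hsp90aa1 (ENSMUSG00000021270) at chr12:110690605-110702728, Hspe1 (ENSMUSG00000073676) at chr1:55088132-55091307 and Hspd1 (ENSMUSG00000025980) at chr1:55077835-55088243. Hspe1 and Hspd1 overlap by 112 bases on opposite strands, and whether the counting used strand is not given in the sources used here.

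The samples carried the markers of their label. The summed TPM of 10 macrophage markers was 12652 to 21088 in the 8 samples, and it was lower in both C498 samples (16246 to 16396) than in both NC samples (20644 to 21088), and lower in C498+LPS (12652 to 14466) than in LPS (18402 to 18928). Neutrophil markers summed to 208 to 228 TPM in NC, 188 to 209 in LPS, 117 to 126 in C498 and 115 to 140 in C498+LPS, with 3 of 10 below NC in both C498 samples and 4 of 10 below LPS in both C498+LPS samples. Of the macrophage markers, whose sum is mostly Lyz2, 6 of 10 were lower in both samples in each comparison, and Cd14 was higher in C498 than in NC. T cell markers summed to 2.97 to 7.89 TPM and eosinophil and mast cell markers to 3.17 to 8.83 TPM, with Ngp, Elane and Epx at 0 in all samples. The sum of 10 fibroblast and mesothelial markers, led by the collagen gene Col1a1 and with none at 0 in all samples, was 154 to 197 TPM in NC, 181 to 205 in LPS, 646 to 769 in C498 and 632 to 932 in C498+LPS. In C498, 9 of these 10 markers were above NC in both samples, and in C498+LPS all 10 were above LPS in both samples. The ratio of means of this sum was 4.03 for C498 over NC and 4.06 for C498+LPS over LPS. B cell markers were 18.1 to 25.6 TPM in sum without C498 and 42.1 to 122 TPM with it. The sum of 5 LPS response genes was 96.5 to 97.0 TPM in NC, 270 to 302 in C498, 5290 to 5554 in C498+LPS and 7158 to 7177 in LPS. In bulk samples, a change in the number of cells of a type cannot be told apart from a change in transcript per cell. TPM values hold no read depth, so depth is unknown.

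The first comparison asked what C498 alone did to the chaperones. In C498 vs NC, Hspa1a, Hspa1b, Hspb1 and Hsp90aa1 rose by at least 2-fold, Hspa8, Dnajb1 and Bag3 rose by less, and Hsph1, Hspe1 and Hspd1 did not pass the test. A gene was called where its fold was at least 2 and its Benjamini-Hochberg adjusted p in limma at most 0.05, with fold changes taken on log2(TPM + 1). On that rule 4 of the 10 were called higher and 0 lower, where 5.64% of all genes tested were called higher and 1.36% lower (687 and 166 genes, or 565 and 269 with each sample centred on its median gene). The count of all genes called higher rested on single samples, with 1187 without NC replicate 1, 425 without NC replicate 2, 274 without C498 replicate 1 and 309 without C498 replicate 2. The 166 called lower became 71 and 81 without C498 replicate 1 and 2. By adjusted p alone 7 of 10 rose, against 9.29% of all genes. Both C498 samples lay above both NC samples for 9 of 10 genes, against 29.3% of all genes. The median log2 change was 0.71 for the 10 genes and 0.01 for all genes. As the 10 genes were chosen with earlier results of these data known, the shares side by side are a description and not a test.

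**Figure D1:**
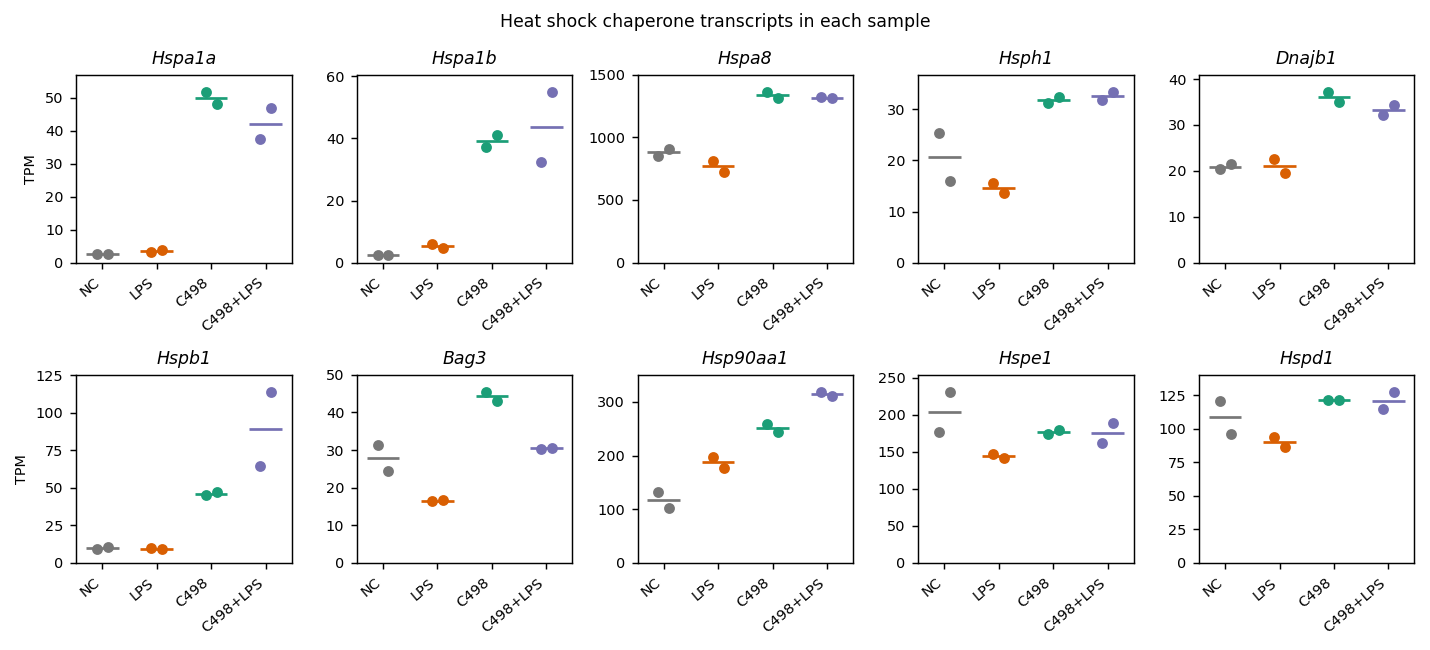
TPM of the 10 chaperone genes on linear axes that start at 0, with 1 point per sample and a line at the mean of the 2 samples in each of the groups NC, LPS, C498 and C498+LPS. Hspa1a, Hspa1b and Hspb1 sit near the floor in NC and LPS and far above it in C498 and C498+LPS, while Hspe1 lies between 141 and 231 TPM and Hspd1 between 86.4 and 128 TPM in all samples.

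The inducible Hsp70 genes moved most. Hspa1a was at 2.74 and 2.59 TPM in NC and at 51.83 and 47.93 TPM in C498. Hspa1b was at 2.54 and 2.40 TPM in NC and at 37.20 and 41.27 TPM in C498. In both genes every C498 sample lay far above every NC sample, and the replicates lay close together. On the log2 scale Hspa1a rose by 3.79 ± 0.16 (SE, n = 2 samples per group), with adjusted p = 3.67e-05 by limma, and Hspa1b by 3.53 ± 0.25, with adjusted p = 0.000309 by limma. They ranked 16 and 20 among the 12189 log2 changes. Because the pseudocount shrinks low genes, the ratio of mean TPM was larger, at 18.7 for Hspa1a and 15.9 for Hspa1b. Their sum, free of the split of reads between them, went from 5.28 and 4.99 TPM to 89.03 and 89.20 TPM. This 17.4-fold ratio of means was larger than the 4.03-fold ratio of the fibroblast and mesothelial marker sum, which was led by Col1a1. Single markers moved by unlike amounts. Pdgfra was at 9.34 and 5.31 TPM in NC and at 20.27 and 22.72 TPM in C498. Krt19, at low levels, went from 0.13 and 0.11 TPM to 1.65 and 2.39 TPM. The part of those cells in the rise of Hspa1a and Hspa1b was not tested.

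The constitutive Hspa8 was by far the most abundant of the 10. It stood at 853.5 and 905.8 TPM in NC and at 1365 and 1315 TPM in C498, without overlap. It rose by 0.61 ± 0.09 on the log2 scale, less than 2-fold, with adjusted p = 0.00546 by limma. With C498 replicate 1 left out the adjusted p was 0.0643, with C498 replicate 2 left out 0.0502, and with each sample centred on its median gene 0.0634. Within the cytosolic Hsp70 transcripts, Hspa1a and Hspa1b together made up 0.581% in NC and 6.24% in C498, so Hspa8 remained the main form per transcript length in all samples.

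The cochaperones of Hsp70 had smaller log2 changes than Hspa1a and Hspa1b. Dnajb1 was at 20.30 and 21.57 TPM in NC and at 37.26 and 35.05 TPM in C498. Bag3 was at 31.22 and 24.52 TPM in NC and at 45.46 and 43.10 TPM in C498. Both were higher in every C498 sample. Their log2 changes were 0.76 (adjusted p = 0.00826, limma) and 0.66 (adjusted p = 0.0206, limma), and both lost the adjusted p of 0.05 when either C498 sample was left out (0.0582 to 0.0790 for Dnajb1 and 0.103 to 0.136 for Bag3). Hsph1 was at 25.41 and 16.02 TPM in NC and at 31.19 and 32.39 TPM in C498. The NC samples of Hsph1 stood far apart, and its log2 change of 0.63 (95% interval 0.15 to 1.11) did not pass, with adjusted p = 0.0803 by limma. It passed without NC replicate 1 (0.95, adjusted p = 0.00859, limma) and with centring (0.51, adjusted p = 0.0393, limma), and its log2 change was 0.31 without NC replicate 2.

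The small chaperone Hspb1 was at 9.20 and 10.61 TPM in NC and at 45.13 and 47.16 TPM in C498. Its groups were well apart and each was tight. A log2 change of 2.11 ± 0.24 was estimated, with adjusted p = 0.00239 by limma. The ratio of means, 4.66, was near the 4.03 of the fibroblast and mesothelial marker sum, and the part of those cells in the rise of Hspb1 was not tested.

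Hsp90aa1 was at 132.8 and 103.0 TPM in NC and at 259.1 and 244.2 TPM in C498. All C498 values were above all NC values, and NC was the more spread group. The rise of 1.10 ± 0.13 on the log2 scale had adjusted p = 0.00264 by limma. The call lies just over the 2-fold limit, as the log2 change was 0.92 without NC replicate 2 and 0.98 with each sample centred on its median gene. Its constitutive partner Hsp90ab1 rose by a log2 change of 0.66 (adjusted p = 0.00492, limma), and Hsp90aa1 was 16.2% of both in NC and 20.8% in C498.

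The mitochondrial pair did not pass the test. Hspe1, the small lid of the chaperonin, was at 177.1 and 230.9 TPM in NC and at 174.5 and 179.6 TPM in C498. Hspd1, its barrel, was at 120.6 and 96.5 TPM in NC and at 121.7 and 121.3 TPM in C498. The Hspe1 groups overlapped, and the Hspd1 groups were only just apart. Their log2 changes were -0.19 (95% interval -0.52 to 0.14) and 0.17 (95% interval -0.12 to 0.46), so a 2-fold rise of either lay outside its interval.

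**Figure D2:**
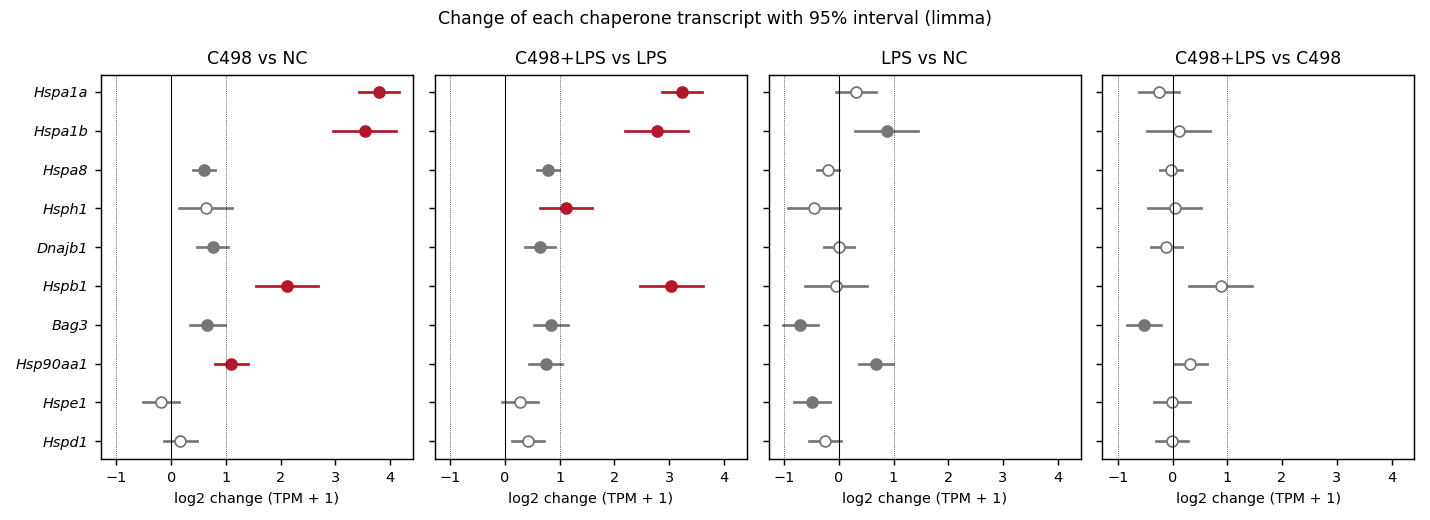
Log2 change of each chaperone gene on the log2(TPM + 1) scale for the comparisons of the design, with 95% intervals as bars, filled points where the adjusted p was at most 0.05, red points where the gene was called higher and dotted lines at a 2-fold change either way. Hspa1a, Hspa1b and Hspb1 stand apart from the other genes in both comparisons of C498, and no gene is red in LPS vs NC.

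The second comparison asked whether the same genes stood higher with C498 when LPS was present. In C498+LPS vs LPS, Hspa1a, Hspa1b, Hspb1 and Hsph1 were called higher and 0 genes lower, where 5.39% of all genes were called higher and 2.18% lower (657 and 266 genes, the first falling to 340 without LPS replicate 1, 300 without LPS replicate 2 and 333 without C498+LPS replicate 2, and the second to 148, 170 and 141). By adjusted p alone 8 of 10 rose, against 9.08% of all genes, Hspe1 and Hspd1 being the exceptions. Both C498+LPS samples lay above both LPS samples for all 10 genes, against 31.9% of all genes. The median log2 change was 0.81 for the 10 genes and 0.01 for all genes. Both comparisons rest on separate control samples, NC in one and LPS in the other.

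Hspa1a was at 3.36 and 3.79 TPM in LPS and at 37.50 and 46.83 TPM in C498+LPS. Hspa1b was at 6.01 and 4.76 TPM in LPS and at 32.56 and 55.09 TPM in C498+LPS. The groups did not overlap, but the 2 C498+LPS samples differed more from each other than the C498 samples did. The log2 changes were 3.23 ± 0.16 (adjusted p = 0.000141, limma) and 2.77 ± 0.25 (adjusted p = 0.000985, limma). Hspa8 was at 813.4 and 723.0 TPM in LPS and at 1321 and 1314 TPM in C498+LPS, and rose by 0.78 on the log2 scale (adjusted p = 0.00190, limma). Hspa1a and Hspa1b made up 1.15% of the cytosolic Hsp70 transcripts in LPS and 6.12% ± 1.53 (SD, n = 2) in C498+LPS.

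Hspb1 was at 9.65 and 9.36 TPM in LPS and at 64.19 and 113.7 TPM in C498+LPS. Its 2 C498+LPS samples differed 1.77-fold, and replicate 2 was the higher. Hspb1 rose by 3.04 ± 0.24 on the log2 scale, with adjusted p = 0.000725 by limma. The fibroblast and mesothelial marker sum was 1.48-fold higher in the same replicate 2, and Hspa1b and Hspa1a were 1.69-fold and 1.25-fold higher there, while Hspa8 and Dnajb1 differed by 0.995-fold and 1.07-fold. The marker sums of B cells, of eosinophils and mast cells and of T cells were 2.90-fold, 2.54-fold and 2.38-fold higher in that replicate as well, at lower levels. Between the C498 samples, replicate 2 over replicate 1 was 1.19 for the fibroblast and mesothelial marker sum and 1.045 for Hspb1. It was 0.925 for Hspa1a and 1.11 for Hspa1b. The ratio of means of Hspb1, C498+LPS over LPS, was 9.36, and that of the fibroblast and mesothelial marker sum 4.06. What part any of those cells have in these differences was not tested.

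**Figure D3:**
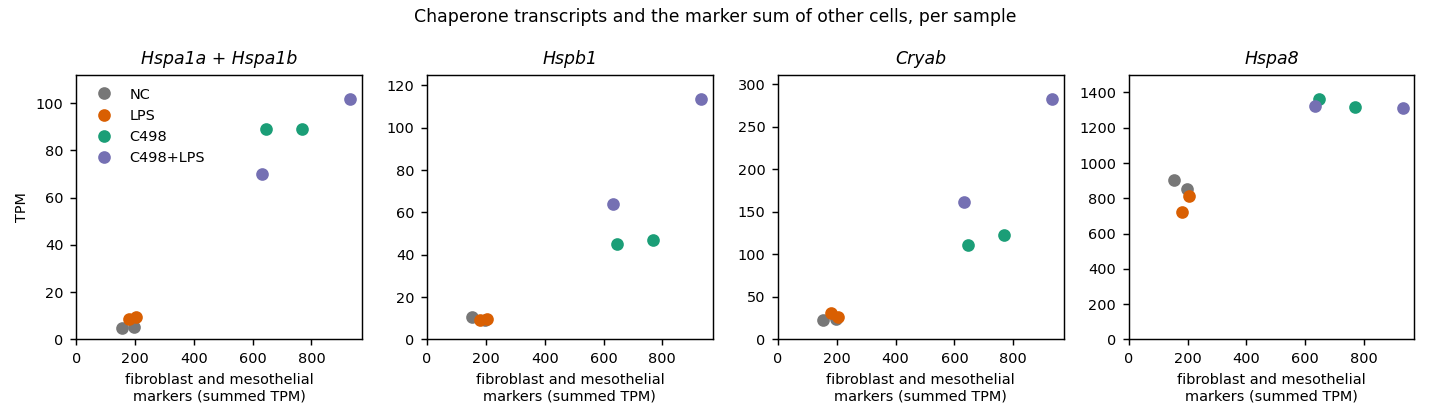
TPM of Hspa1a plus Hspa1b, Hspb1, Cryab and Hspa8 (vertical axes from 0) against the summed TPM of 10 fibroblast and mesothelial markers (horizontal axes from 0), 1 point per sample, coloured by group. The samples form 2 clusters. Marker sums are 154 to 205 TPM in the 4 without C498 and 632 to 932 TPM in the 4 with it. Within C498+LPS the sample with more marker transcript has more Hspa1a plus Hspa1b, Hspb1 and Cryab but not more Hspa8. Within C498 the marker sum of replicate 2 is 1.19-fold that of replicate 1. The same ratio is 1.002 for Hspa1a plus Hspa1b, 1.045 for Hspb1, 1.10 for Cryab and 0.963 for Hspa8.

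Hsph1 was at 15.51 and 13.55 TPM in LPS and at 31.84 and 33.45 TPM in C498+LPS. The groups were tight and apart. Hsph1 rose by 1.12 ± 0.20 on the log2 scale, with adjusted p = 0.0117 by limma, but the adjusted p was 0.0565 to 0.0925 when any 1 of these 4 samples was left out. Dnajb1 was at 22.52 and 19.53 TPM in LPS and at 32.17 and 34.29 TPM in C498+LPS, and rose by 0.64 on the log2 scale (adjusted p = 0.0129, limma). Bag3 was at 16.47 and 16.70 TPM in LPS and at 30.36 and 30.56 TPM in C498+LPS, and rose by 0.84 on the log2 scale (adjusted p = 0.00743, limma). Each of these cochaperones stood higher in every C498+LPS sample than in any LPS sample. Without LPS replicate 2 the adjusted p was 0.0931 for Dnajb1 and 0.0595 for Bag3, and without C498+LPS replicate 2 it was 0.0912 and 0.0603. For Bag3 it was also 0.0604 without LPS replicate 1.

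Hsp90aa1 was at 198.0 and 177.7 TPM in LPS and at 318.5 and 311.6 TPM in C498+LPS, and rose by 0.74 on the log2 scale (adjusted p = 0.00980, limma). C498+LPS was the highest of the 4 groups for this gene in both samples, and the adjusted p was 0.0512 to 0.0813 with any 1 of the 4 compared samples left out. Hspe1 was at 147.2 and 141.3 TPM in LPS and at 162.1 and 189.2 TPM in C498+LPS. Hspd1 was at 93.8 and 86.4 TPM in LPS and at 114.7 and 127.6 TPM in C498+LPS. Both were higher in every C498+LPS sample, but the log2 changes of 0.28 (adjusted p = 0.226, limma) and 0.42 (adjusted p = 0.0612, limma) did not pass.

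The third comparison asked what LPS did on its own, and its answer was small and mixed. In LPS vs NC 0 of the 10 genes were called by limma, where 5.55% of all genes were called higher and 6.68% lower, or 677 and 814 genes (853 and 530 with each sample centred on its median gene). At an unadjusted p under 0.05 there were 4 of 10, near the 41.2% of all genes. By adjusted p alone Hspa1b and Hsp90aa1 rose (9.84% of all genes did) and Bag3 and Hspe1 fell (19.8% of all genes did). The log2 change was 0.87 for Hspa1b (adjusted p = 0.0344, limma), 0.68 for Hsp90aa1 (0.00821), -0.71 for Bag3 (0.00827) and -0.48 for Hspe1 (0.0369). The median of all genes was itself -0.17 in this comparison, and with each sample centred on its median gene Hspe1 no longer passed (log2 change -0.32, adjusted p = 0.332, limma), while Hspa1b was called higher (1.04, adjusted p = 0.0216, limma).

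The values above show the pattern in each sample. Both LPS samples of Hspa1b were above both of NC, and the summed Hspa1a and Hspa1b was at 9.37 and 8.55 TPM in LPS against 5.28 and 4.99 TPM in NC. The sum rose by 0.70 on the log2 scale (adjusted p = 0.0240, limma), a ratio of means of 1.74 where that with C498 alone was 17.4, and its adjusted p was 0.0562 to 0.128 with any 1 of the compared samples left out. Bag3 and Hspe1 were below NC in both LPS samples, Dnajb1 and Hspb1 overlapped between the groups, and Hspa8, Hsph1 and Hspd1 were lower in both without passing (adjusted p = 0.128, 0.140 and 0.165, limma). These 5 of 10 genes below NC in both stand beside 42.2% of all genes. The Hsph1 value rested on NC, with a log2 change of -0.77 (adjusted p = 0.00985, limma) without NC replicate 2 but only -0.14 when NC replicate 1 was dropped. The adjusted p of Hspa1b, Bag3, Hsp90aa1 and Hspe1 each went above 0.05 under at least one alternative. Without LPS replicate 1 it was 0.183 for Hspa1b, 0.0561 for Bag3, 0.0669 for Hsp90aa1 and 0.124 for Hspe1, and without LPS replicate 2 it was 0.0867 for Hspa1b, 0.0513 for Bag3 and 0.160 for Hspe1. Without NC replicate 1 it was 0.0829 for Hspa1b, and without NC replicate 2 it was 0.0965 for Hspa1b and 0.0962 for Hspe1.

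The fourth comparison asked what LPS did to cells that had received C498. In C498+LPS vs C498 0 of 10 were called by limma, where 2.52% of all genes were called higher and 3.13% lower, or 307 and 381 genes (434 and 196 with centring). At an unadjusted p under 0.05 there were 3 of 10, near the 31.9% of all genes. By adjusted p alone Bag3 fell and 0 of 10 rose, where 11.7% of all genes fell and 4.51% rose. The log2 change of Bag3 was -0.52 (adjusted p = 0.0404, limma), and that p was 0.140 to 0.196 with any 1 of the compared samples left out. With centring, Bag3 did not pass (-0.31, adjusted p = 0.0935, limma), the median of all genes being -0.18 before it. Hspb1 had a log2 change of 0.88 and an adjusted p of 0.0511 by limma, close to both limits, and without C498+LPS replicate 1 it was called, with a log2 change of 1.28 and adjusted p = 0.0136, as it was with centring (1.09, adjusted p = 0.0474, limma). Without C498+LPS replicate 2 its log2 change was 0.47 (adjusted p = 0.146, limma), and without either C498 sample the adjusted p was 0.197 to 0.218. For Hspa1a the log2 change was -0.24 (95% interval -0.61 to 0.12) and for the summed Hspa1a and Hspa1b -0.08 (95% interval -0.49 to 0.34), so a change of 2-fold lay outside both intervals.

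The interaction of both agents, the test of whether C498 changed a gene by a different amount with LPS than without, called 0 of the 10 genes by limma, where 0.0738% of all genes were called higher and 0.394% lower. Of the 10, 3 had an unadjusted p under 0.05, against 11.1% of all genes. These were Hspb1 (0.93, 95% interval 0.12 to 1.74, adjusted p = 0.393, limma), Hspa1a (-0.56, 95% interval -1.08 to -0.05, adjusted p = 0.409, limma) and Hspe1 (0.47, 95% interval 0.01 to 0.93, adjusted p = 0.448, limma). The summed Hspa1a and Hspa1b had -0.77 (95% interval -1.36 to -0.18, adjusted p = 0.332, limma). These intervals are wide, and the test does not show that the response to C498 was alike with and without LPS.

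As shares, the 10 transcripts made up 0.139% of all TPM in NC, 0.126% in LPS, 0.214% in C498 and 0.220% in C498+LPS. Hspa8 was 58.2% to 64.1% of this sum in the 8 samples. The Hspe1 over Hspd1 ratio was 1.47 and 2.39 in NC and 1.41 to 1.63 in the other 6 samples, so NC replicate 2 stood apart. The order of the levels in NC, on the per-length TPM scale, had Hspa8 first, then Hspe1, Hsp90aa1 and Hspd1, and then Bag3, Dnajb1, Hsph1, Hspb1, Hspa1a and Hspa1b. The samples of the neighbours Hsp90aa1 and Hspd1, and those of Dnajb1 and Hsph1, overlapped. In C498 the samples of Hspa1a, Hspb1, Bag3 and Hspa1b all lay between 37.2 and 51.8 TPM.

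The rest of the chaperone system was read from lists of heat shock factors, other inducible chaperones, cochaperones, J-domain proteins and the chaperones of the mitochondrion, the ER and the cytosolic chaperonin. Of 135 genes 121 were tested. In C498 vs NC 8 of 121 were called higher and 1 lower, with a median log2 change of 0.15. In C498+LPS vs LPS 7 were called higher and 0 lower by limma, with a median of 0.10. These shares stand close to the 5.64% and 5.39% of all genes. On adjusted p without the fold limit 21 of 121 rose in each comparison, where 9.29% and 9.08% of all genes did.

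Of the small heat shock proteins 3 of 7 were called higher in both comparisons of C498, where 5.64% and 5.39% of all genes were called higher. Cryab, whose product is a small chaperone like that of Hspb1, was at 23.7 and 22.8 TPM in NC, at 112 and 123 TPM in C498, at 26.6 and 31.6 TPM in LPS and at 162 and 283 TPM in C498+LPS. Its C498 samples were all far above those without. The log2 change was 2.29 in C498 vs NC (adjusted p = 0.00157, limma) and 2.84 in C498+LPS vs LPS (adjusted p = 0.000843, limma). Hspb8 (1.80 and 2.47 for log2 change, adjusted p = 0.00777 and 0.00202, limma) and Hspb2 (1.25 and 1.39, adjusted p = 0.0415 and 0.0269, limma) were the others. Hspb2 overlaps the far more abundant Cryab on the opposite strand, so its values of 1.17 to 6.48 TPM are uncertain. Cryab was 5.06-fold and 7.66-fold, Hspb8 4.52-fold and 8.05-fold and Hspb2 3.12-fold and 4.18-fold higher in ratio of means, beside 4.03-fold and 4.06-fold for the fibroblast and mesothelial marker sum. Serpinh1, the collagen chaperone, was called in both comparisons with log2 changes of 1.63 (adjusted p = 0.00272, limma) and 1.85 (adjusted p = 0.00160, limma). Its ratio of means was 3.13 and 3.72. The part of those cells in these genes was not tested.

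The ER chaperones had 8 of 16 with a rise by adjusted p in each comparison, where 9.29% and 9.08% of all genes rose by that rule. Hspa5, the ER Hsp70, rose by a log2 change of 1.15 with C498 alone (adjusted p = 0.000899, limma) and of 0.86 with LPS present (adjusted p = 0.00275, limma). Dnajb9, an ER J-domain protein, rose in both, by 1.57 (adjusted p = 0.000843, limma) and 1.50 (adjusted p = 0.00123, limma). The J-domain protein Dnajc9 was called higher in C498+LPS vs LPS (log2 change 1.29, adjusted p = 0.00196, limma), having been called lower in LPS vs NC (-1.02, adjusted p = 0.00258, limma), and Dnajc15 lower in C498 vs NC (-1.12, adjusted p = 0.0135, limma).

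The transcripts of the heat shock factors did not pass the test. Hsf1 was at 27.3 and 21.0 TPM in NC and 26.6 and 26.8 TPM in C498 (log2 change 0.15, adjusted p = 0.533, limma). Hsf2 had 0.36 (adjusted p = 0.175, limma). Dedd2, a death effector domain protein placed in the list of regulators, was called higher in both comparisons of C498, with log2 changes of 1.14 and 1.21 (adjusted p = 0.00428 and 0.00285, limma), and lower in LPS vs NC (-1.12, adjusted p = 0.00203, limma). Of 14 genes of the cytosolic chaperonin and prefoldin 0 were called higher in either, and 0 of the 13 mitochondrial chaperones, with Hspa9 at 0.28 and 0.20 (adjusted p = 0.243 and 0.424, limma). By adjusted p alone 0 and 1 of the chaperonin genes and 1 and 0 of the mitochondrial ones rose. Lists of this size would hold few calls at the 5.64% and 5.39% of all genes, so these counts are near the background.

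**Figure D4:**
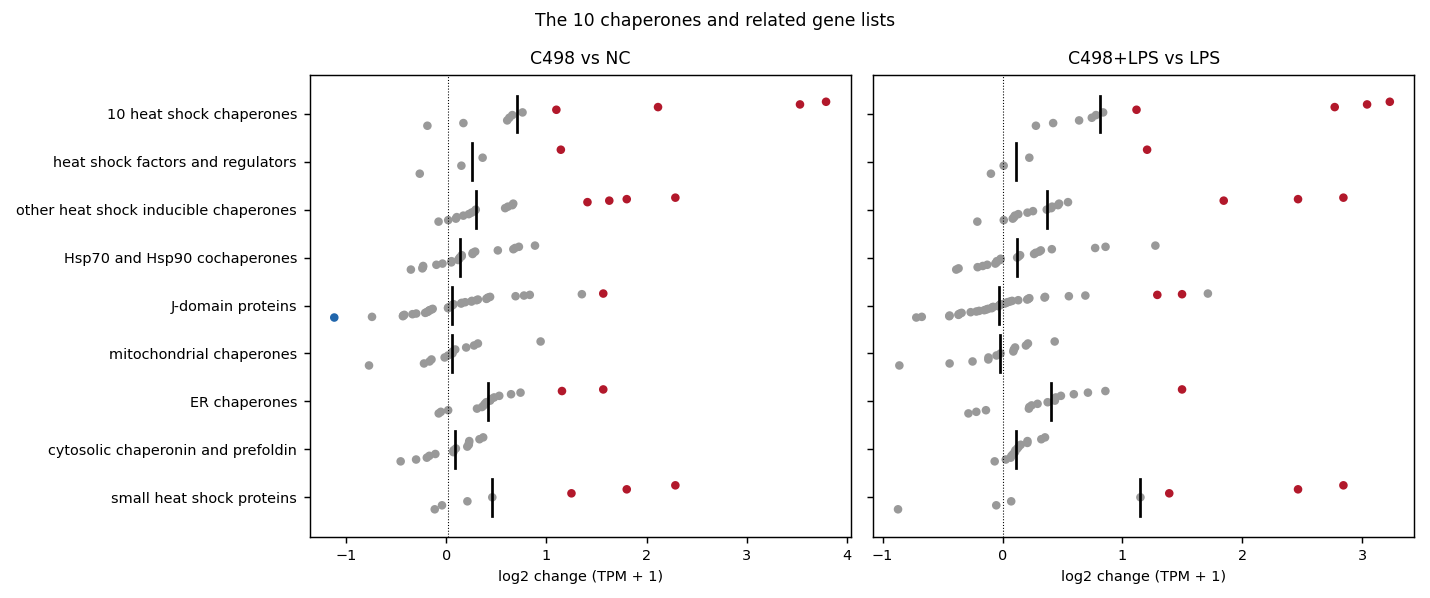
Log2 change on the log2(TPM + 1) scale of each gene in 8 related chaperone lists and of the 10 heat shock chaperones, in C498 vs NC and in C498+LPS vs LPS, with 1 point per gene, red and blue for genes called higher and lower, a black tick at each list's median and a dotted line at the median of all genes. The 10 chaperones reach furthest to the right, followed by the small heat shock proteins and the other inducible chaperones, which share Cryab and Hspb8. The mitochondrial list lies around the dotted line. In the cytosolic chaperonin list 9 of 14 genes lie above 0 in C498 vs NC (median 0.08). In C498+LPS vs LPS 13 of 14 do (median 0.12).

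The genes most like the summed Hspa1a and Hspa1b over the 8 samples, by Pearson correlation of log2(TPM + 1) among 11883 candidates, were Osmr (0.997), Egr1 (0.996), Zswim4 (0.995), Dusp5 (0.994) and Col5a1 (0.994). The 8 samples fall into a cluster with and a cluster without C498, and these correlations reflect that split, so they are a description with no test. Osmr encodes a receptor for oncostatin M, Egr1 an immediate early transcription factor, Dusp5 a phosphatase of MAP kinases and Col5a1 a collagen.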

How the data were processed

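RNA from 8 samples of peritoneal macrophages was sequenced by the authors, whose notes name fastp for trimming, HISAT2 for alignment, StringTie for assembly and RSEM for quantification. Versions, genome build and strand setting are not given in the sources used here. The deposited values were TPM, scaled by transcript length and library size, with no counts. Groups came from the labels, which name the vehicle samples CTRL where the table has NC.

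Genes with a mean of at least 1 TPM over the 8 samples (12189 of 55801) entered limma 3.58.1 (R 4.3.3) on log2(TPM + 1), with a variance trend, all 8 samples in 1 fit and Benjamini-Hochberg adjustment over all genes tested. A gene was called if it changed at least 2-fold with adjusted p no higher than 0.05. The counting model of the study was not used, since TPM are not counts. With 2 against 2 samples an exact two-sided permutation test cannot go below p = 0.333. The precision is limited by the 2 samples per group. Pearson correlations of log2(TPM + 1) between replicates were 0.962 to 0.981. The script was tested on simulated data.

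The 10 genes and the lists were chosen with earlier results of these data known. Named besides the 10 were list genes called in either comparison of C498, Hsf1, Hsf2, Hsp90ab1, Hspa5 and Hspa9, and the 5 genes most correlated with summed Hspa1a and Hspa1b. One result of these lists is not reported here. Coordinates came from GENCODE M21 on GRCm38, in which all 10 gene identifiers matched, and promoter windows from RefSeq (GRCm38.p6). Alternatives were another pseudocount, filter, centring, quantile normalization, fitting the 2 compared groups alone, dropping the variance trend, a replicate block, no fold limit and leaving out each sample.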

Additional observations from a re-analysis of the deposited data

Results flagged for a closer look

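The Hspa1a values with and without LPS stood in opposite order in the absence and the presence of C498. Both LPS samples (3.36 and 3.79 TPM) lay above both NC samples (2.74 and 2.59 TPM), a log2 change of 0.32, and both C498+LPS samples (37.50 and 46.83 TPM) lay below both C498 samples (51.83 and 47.93 TPM), a log2 change of -0.24. Neither change passed the test, with adjusted p = 0.168 and 0.325 by limma. With each sample centred on its median gene the second change was -0.03 (adjusted p = 0.934, limma), all genes having a median of -0.18 there, and 48.8% of all genes were lower in both C498+LPS samples. The sum with the near-identical Hspa1b had a log2 change of -0.08 (adjusted p = 0.813, limma). The test of the difference, the interaction, gave -0.56 with an unadjusted p of 0.0363 by limma and an adjusted p of 0.409.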

How the results depend on the processing

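Hspa1a, Hspa1b and Hspb1 were called higher in C498 vs NC and in C498+LPS vs LPS under all 18 alternatives. Of the 10 genes, 1 (Hspa1b) was called higher in LPS vs NC with a pseudocount of 0.1 TPM, with centring on the median gene and with quantile normalization. Without a fold limit 2 were higher and 2 lower in LPS vs NC, 7 higher in C498 vs NC, 8 higher in C498+LPS vs LPS and 1 lower in C498+LPS vs C498. In C498+LPS vs C498, 1 (Hspb1) was higher with centring (log2 change 1.09). With 1 sample left out, 3 to 4 genes were called higher in C498 vs NC, 3 to 4 in C498+LPS vs LPS and 0 to 1 in C498+LPS vs C498. Hsph1 in C498+LPS vs LPS fell to 0.95 with a pseudocount of 5 TPM. No called gene changed sign under any alternative. Centring moved the median of all genes from -0.17 to -0.00054 in LPS vs NC, from 0.014 to -0.11 in C498 vs NC and from -0.18 to 0.038 in C498+LPS vs C498.

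Samples with the same replicate number deviated together only weakly (correlations of 0.040 to 0.168). These values cannot show whether such samples shared a mouse or a day, and the sources do not state it, so pairing is unknown. A replicate block changed none of 65 results under the rule of fold and adjusted p together, with 4 genes called higher in C498 vs NC and 4 in C498+LPS vs LPS. By adjusted p alone it took Hspb1 in C498+LPS vs C498 past the limit (0.0298, log2 change 0.88). The cause of these shifts was not tested. Depth is unknown, and the 2 samples per group limit the precision.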
